A study of Mus musculus with 10 samples.

Results

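Matrix metalloproteinases, their inhibitors and the enzymes that mature and crosslink collagen were compared between clones of 3T3-L1, a mouse preadipocyte culture, that differ in how readily they become fat cells. The set holds 39 genes in 7 roles, listed by symbol: 11 metalloproteinases, 4 tissue inhibitors of metalloproteinases (TIMPs), 7 ADAMTS proteases, 3 genes of the plasminogen activator system, 5 lysyl oxidases, 5 collagen hydroxylases and 4 others. Of these, 36 had a probe set annotated to that symbol alone, out of 19937 genes with such a probe set. Mmp15 and Adamts2 were not analysed here, and Loxl2 was left out because its probe set also names another gene. For Adamts9 and Loxl4, which had several probe sets, the brightest over the 10 arrays was kept. A gene was tested when it exceeded its array's 25th percentile in at least 5 arrays, which 35 of the 36 did, and Fap did not.

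Fibroblast-derived matrix must be opened and rebuilt when a spindle-shaped preadipocyte rounds up into a fat cell. Metalloproteinases are secreted or membrane-bound zinc enzymes made as inactive precursors, and TIMPs block their active site. ADAMTS proteases cut proteoglycans and procollagens, and plasminogen activators make plasmin, which degrades fibrin and activates other proteases. Prolyl and lysyl hydroxylases modify collagen inside the cell, and lysyl oxidases crosslink it outside.

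The 5 High lines (replicates 1 to 5, clones 3F4, 4D2, 4E3, 5C4 and 5D4) had stored much triglyceride after a cocktail of insulin, dexamethasone and IBMX, and the 5 Low lines (clones 1E7, 2D7, 2F1, 4D11 and 4H4) had stored little. Each line grew from a single colony and gave 1 array, so each value is that of 1 clone. RNA came from untreated, proliferating cells in DMEM with serum, kept below confluence, before any cocktail was given. All lines are subclones of 3T3-L1, an embryonic fibroblast line. Values are log2 intensities after RMA, a method that corrects background, brings arrays to a common distribution and summarises probes. They have no counting depth. Array medians lay between 7.74 and 7.84, and the highest correlation between 2 arrays was 0.995. The intensity filter was passed by 10 of 10 fibroblast and preadipocyte markers, 5 of 7 of mature adipocytes (not Adipoq and Lep), 5 of 8 of leukocytes (not Ptprc, Adgre1 and Itgam), 7 of 8 of endothelium and 8 of 8 of epithelium, so passing it does not set the fibroblast list apart. In these bulk samples, fewer cells with a transcript and less of it per cell cannot be told apart.

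No member passed the threshold between High and Low lines. At a limma adjusted p under 0.05, 0 of 35 tested members were called, against 0.00612% of all 16339 tested genes, which is 1 gene. At an unadjusted p under 0.05, 5 members were higher in High lines (Mmp19, Mmp11, Timp4, Adamts9 and Loxl3), against 3.16% of all tested genes in that direction. In the other direction there were 0 members, against 4.79% of all genes. Over all genes these are 517 higher and 782 lower, a split that was 298 and 1188 with each array centred on its median and 738 and 542 with the median of each gene's 50 nearest genes subtracted. Among members, centring gave 4 nominally higher and 1 lower, since Loxl3 then had an unadjusted p of 0.0793 and Plaur, at -0.30, one of 0.0391, while the subtraction gave 3 higher (Mmp19, P4ha2 and Adamts15) and 1 lower (Plaur). The 5 members are 14.3% of the 35 tested, where 7.95% of all genes passed in either direction. They are nominal calls, on chromosomes 10 (Mmp19 and Mmp11) and 6 (Timp4, Adamts9 and Loxl3), and 4 remain without Timp4. That gene passed the intensity filter mainly through the High lines, so its passing and its difference are not independent. For 0 members did the 5 High and 5 Low values fail to overlap, against 1.57% of all genes, 0.526% higher and 1.04% lower in High lines. When lines were compared only where clone names share their leading digit, which leaves 2 High and 2 Low lines, 0 members had an unadjusted p under 0.05. Of the 35 members, 26 had positive and 9 negative differences, where 58% of all genes had a positive one, and with each array centred on its median 22 were positive and 13 negative. The median member difference was 0.061, beside 0.021 over all genes.

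**Figure D1:**
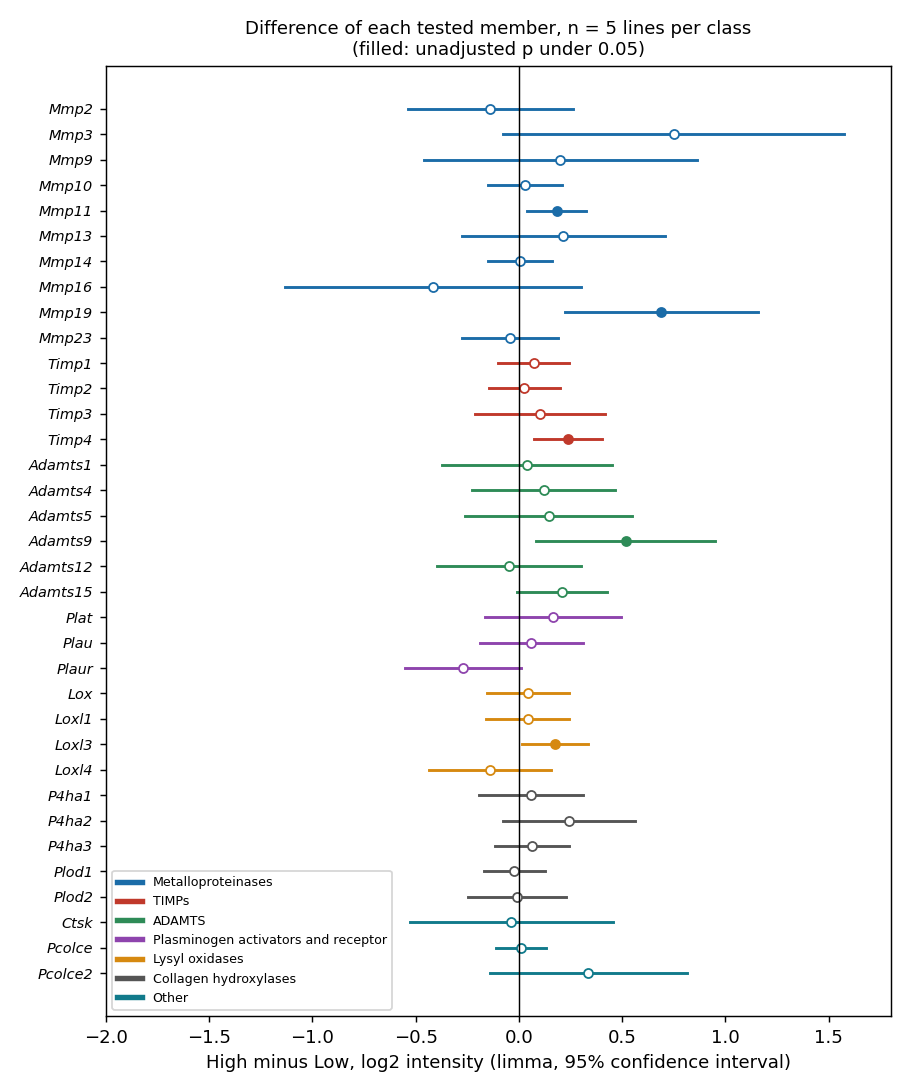
High minus Low difference (log2 intensity, x axis) with its 95% confidence interval for each of the 35 tested members, coloured by role. The widest intervals belong to Mmp3 and Mmp16, and the intervals of Mmp19, Mmp11, Timp4, Adamts9 and Loxl3 lie above 0 before adjustment.

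The metalloproteinases split into members that hardly varied between lines and members that varied widely. The 10 tested had a median difference of 0.11, positive for 7 and negative for 3, with Mmp10 and Mmp14 turning negative once arrays were centred on their medians, and 2 were nominally higher. Mmp19, a secreted protease that cleaves basement membrane proteins (Entrez gene 58223, probe set 10367400), measured 11.65, 10.96, 10.54, 11.05 and 11.26 in High replicates 1 to 5, against 10.65, 10.34, 10.44, 9.76 and 10.80 in Low replicates 1 to 5. High replicate 1 was the highest line and Low replicate 4 the lowest, and High replicate 3 lay below Low replicates 1 and 5, so the classes overlapped. Its mean was 11.09 ± 0.41 in High lines and 10.40 ± 0.40 in Low lines (SD, n = 5 each). The difference of 0.69 (SE 0.21, 95% confidence interval 0.22 to 1.16), or 1.61-fold on the RMA scale, had an unadjusted p of 0.00726 and a limma adjusted p of 0.419. With any 1 line left out it stayed between 0.53 and 0.83, and within clone names that share a leading digit it was 0.46 (unadjusted p = 0.16).

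Mmp11, or stromelysin-3, is cut to its active form inside the cell by furin and has been described as a brake on fat cell formation in mice. It measured 10.73, 10.66, 10.70, 10.53 and 10.65 in High replicates 1 to 5, against 10.47, 10.32, 10.58, 10.51 and 10.47 in Low replicates 1 to 5. The classes met only where High replicate 4 lay below Low replicate 3. The difference of 0.18 (SE 0.065) had an unadjusted p of 0.0157 and a limma adjusted p of 0.482, and its size of 1.14-fold was small. With the median of the 50 nearest genes on its chromosome subtracted line by line, it was 0.11 (unadjusted p = 0.255), while Mmp19, also on chromosome 10, was 0.68 (unadjusted p = 0.00655).

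The stromelysin and collagenase genes Mmp3, Mmp10 and Mmp13 lie in a cluster of metalloproteinase genes on chromosome 9, and their promoters are shown because Mmp3 and Mmp13 varied together across lines while Mmp10 stayed near the intensity filter. Transcription factor AP-1, which responds to growth factors, stress and cytokines, is a textbook regulator of these genes. Each line below gives RefSeq's 300 bases, 250 before and 50 from the start site, in GRCm38.p6. All are on the plus strand and run 5′ to 3′, and capitals mark the AP-1 motif TGAGTCA or its reverse complement. The windows are chr9:7445572-7445871 for Mmp3, chr9:7272264-7272563 for Mmp13 and chr9:7502092-7502391 for Mmp10.
Mmp3: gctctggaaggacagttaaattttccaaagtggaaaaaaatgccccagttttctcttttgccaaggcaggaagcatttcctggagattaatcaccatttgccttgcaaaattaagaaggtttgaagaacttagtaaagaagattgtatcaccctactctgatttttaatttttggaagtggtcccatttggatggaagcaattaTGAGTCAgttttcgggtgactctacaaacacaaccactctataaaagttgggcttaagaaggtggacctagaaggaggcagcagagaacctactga
Mmp13: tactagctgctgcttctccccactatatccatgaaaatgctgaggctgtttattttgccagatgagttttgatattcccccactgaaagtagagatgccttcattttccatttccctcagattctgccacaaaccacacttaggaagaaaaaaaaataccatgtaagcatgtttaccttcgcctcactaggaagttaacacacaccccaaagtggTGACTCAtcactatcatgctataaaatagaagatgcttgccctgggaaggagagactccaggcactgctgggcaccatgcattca
Mmp10: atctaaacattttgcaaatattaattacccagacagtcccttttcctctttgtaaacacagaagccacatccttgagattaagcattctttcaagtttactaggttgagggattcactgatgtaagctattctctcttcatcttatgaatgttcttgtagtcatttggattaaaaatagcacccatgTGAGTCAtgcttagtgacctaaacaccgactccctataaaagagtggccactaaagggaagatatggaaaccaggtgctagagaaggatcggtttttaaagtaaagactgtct

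The motif, searched on both strands, began 46 bases before the start site in Mmp3, 35 in Mmp13 and 63 in Mmp10, on the reverse strand in Mmp13. Plaur also held it, and 4 of the 24 members with a promoter in the table did, beside 5.2% of all 32851 promoter windows. All 4 were among the 7 genes for which it was looked up, of which 5 had a promoter window. A match describes the letters of the window and says nothing of binding.

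Mmp3, stromelysin-1, degrades proteoglycans and activates other metalloproteinases. It measured 8.46, 8.27, 8.91, 7.50 and 8.74 in High replicates 1 to 5, against 7.29, 6.91, 8.10, 6.90 and 8.91 in Low replicates 1 to 5, a 4.02-fold range. The Low lines spread over the whole range, with replicates 2 and 4 lowest of all lines and replicate 5 level with High replicate 3 at the top. The difference of 0.75 (95% confidence interval -0.074 to 1.58) did not pass (limma unadjusted p = 0.0707, adjusted p = 0.661). It was 1.07 without Low replicate 5, at an unadjusted p of 0.00448 and an adjusted p of 0.416, and 0.97 without High replicate 4, at an unadjusted p of 0.0266. Without any other line the unadjusted p was 0.0553 to 0.167, and the difference was 0.57 without Low replicate 2 or 4. Mmp13, collagenase-3, which cuts fibrillar collagen, measured 7.64, 6.78, 7.82, 7.13 and 7.58 in High replicates 1 to 5, against 6.92, 6.80, 7.16, 7.11 and 7.89 in Low replicates 1 to 5. Low replicate 5 and High replicate 3 were again the highest, and High replicate 2 and Low replicate 2 the lowest. Its difference was 0.22 (limma unadjusted p = 0.359, adjusted p = 0.824). Mmp10, stromelysin-2, stayed between 6.62 and 6.99 in all lines, near the intensity filter of 6.38 to 6.47, and differed by 0.031. Across the 10 lines Mmp3 and Mmp13 correlated at r = 0.79 (permutation p = 0.0106, adjusted p = 0.0459 over 13 pairs) and rho = 0.77 (permutation p = 0.0121, adjusted p = 0.0633). The correlation was 0.79 without Low replicates 2 and 4, the lines farthest from the median of Mmp3, 0.66 within High and 0.89 within Low lines. The adjusted p of r stayed under 0.05 only without High replicate 2 or Low replicate 4, and was 0.0569 to 0.0965 without any other line. With the median of neighbouring genes subtracted from both, a step chosen after seeing the data for this and all other pairs, it was 0.0815, at r = 0.75. Mmp3 and Mmp10 gave r = -0.22 (permutation p = 0.531, adjusted p = 0.767; rho = -0.14, permutation p = 0.708), and -0.31 without Low replicates 2 and 4.

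High and Low lines overlapped in the gelatinases and the membrane-bound members. Mmp9, gelatinase B, measured 8.50, 8.75, 9.54, 8.78 and 10.08 in High replicates 1 to 5, against 8.59, 8.59, 9.41, 8.54 and 9.52 in Low replicates 1 to 5. High replicates 5 and 3 and Low replicates 5 and 3 stood above the other 6 lines, and the difference was 0.20 (limma adjusted p = 0.869). Mmp2, gelatinase A, measured 12.61, 11.89, 12.27, 12.33 and 12.52 in High replicates 1 to 5, against 12.19, 12.96, 12.63, 11.96 and 12.57 in Low replicates 1 to 5, with the highest value in Low replicate 2 and the lowest in High replicate 2. Its difference was -0.14 (limma adjusted p = 0.852). Mmp14, the membrane-anchored protease that activates pro-MMP2 and that mouse fat cells need to grow in a collagen gel, stayed between 11.85 and 12.17 in all lines. Its difference of 0.00726 had a 95% confidence interval of -0.15 to 0.16, and it was -0.024 with arrays centred. Mmp16, a related membrane-anchored protease, measured 6.63, 6.35, 6.42, 6.73 and 6.48 in High replicates 1 to 5, against 6.19, 8.39, 6.60, 7.10 and 6.41 in Low replicates 1 to 5. Low replicate 2 stood above all other lines, and the difference of -0.41 was -0.053 without it. Apart from Low replicates 2 and 4, the values of Mmp16 ran from 6.19 to 6.73, near the intensity filter of 6.38 to 6.47. Mmp16 exceeded that filter in 4 High and 4 Low lines. Mmp23, an atypical membrane-anchored member, differed by -0.042 and ran from 11.03 to 11.64, both in Low lines.

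**Figure D2:**
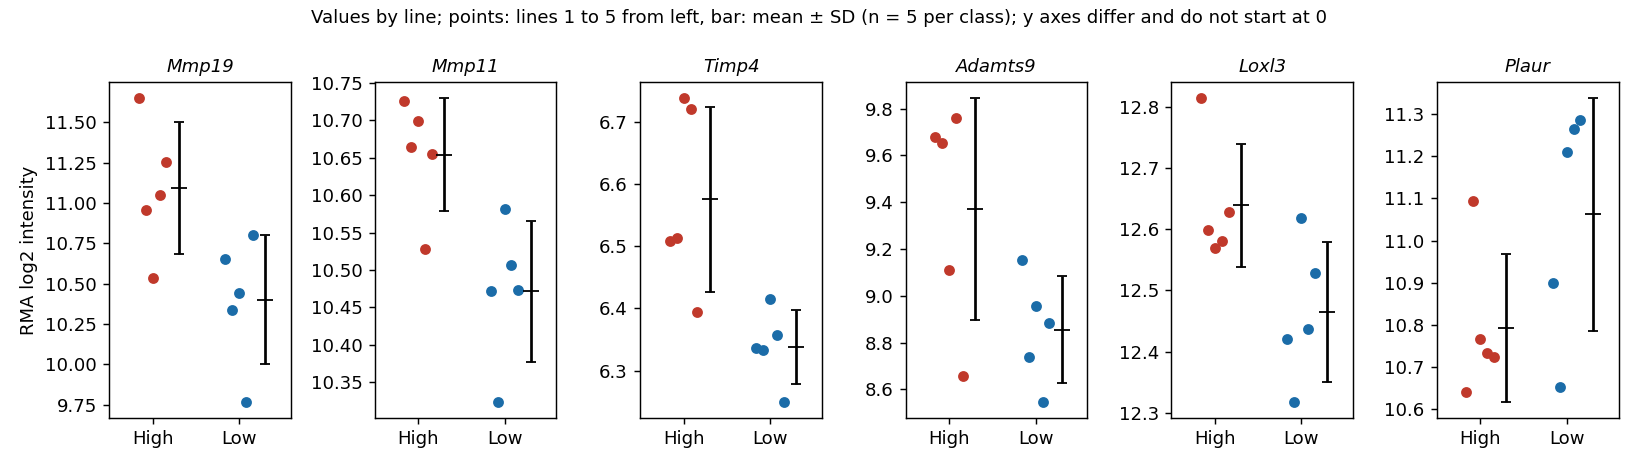
RMA log2 intensity (y axis, a different range in each panel) of Mmp19, Mmp11, Timp4, Adamts9, Loxl3 and Plaur in the 5 High lines (left, red) and the 5 Low lines (right, blue), with mean and SD. The High and Low points overlap in every panel, by 1 line of a class or more.

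TIMPs had small differences with a median of 0.087, positive for all 4, although Timp2 turned to -0.00463 with arrays centred on their medians and Timp3 to -0.030 with neighbouring genes subtracted. Timp4 was the member with the smallest unadjusted p among them, but its signal was close to the intensity filter of its arrays. It measured 6.51, 6.51, 6.74, 6.72 and 6.39 in High replicates 1 to 5, against 6.34, 6.33, 6.42, 6.36 and 6.25 in Low replicates 1 to 5. It exceeded that filter in 4 High lines and 1 Low line, so its difference of 0.24 (limma unadjusted p = 0.00857, adjusted p = 0.429) is one between values near the filter. Timp1, a broad secreted inhibitor, measured 13.46, 13.59, 13.41, 13.44 and 13.34 in High replicates 1 to 5, against 13.15, 13.56, 13.38, 13.40 and 13.39 in Low replicates 1 to 5, and Low replicate 1 was the lowest line. Its difference was 0.072. Timp3, which binds to the matrix and also inhibits ADAM and ADAMTS proteases, measured 12.51, 13.09, 12.64, 12.78 and 12.94 in High replicates 1 to 5, against 12.22, 12.93, 12.62, 12.92 and 12.75 in Low replicates 1 to 5. High replicate 2 was highest and Low replicate 1 lowest, and the difference was 0.10. Timp2, which both inhibits MMP2 and helps MMP14 activate it, differed by 0.027 (95% confidence interval -0.14 to 0.20). Mmp2 and Timp2 correlated at r = 0.65 (permutation p = 0.0406, adjusted p = 0.106; rho = 0.68, permutation p = 0.035), and 0.49 without High replicate 2 and Low replicate 2. Mmp2 and Mmp14 gave r = 0.50 (permutation p = 0.142; rho = 0.64, permutation p = 0.0548), and 0.17 without the same lines. With neighbouring genes subtracted, r was -0.075 for Mmp2 with Timp2 and -0.035 for Mmp2 with Mmp14.

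The ADAMTS proteases of the set varied widely between lines. Of 6 tested, 5 had an SD over the 10 lines above the 90th percentile of all genes, and 5 had positive differences, with a median of 0.13. Of 17 other ADAMTS and ADAMTS-like genes tested, 3 had such an SD, and the median SD of the 17 was 0.136, beside 0.14 over all genes. Signal level was not matched between these genes and those of the set. Adamts9, which cleaves versican and aggrecan, measured 9.68, 9.65, 9.11, 9.76 and 8.66 in High replicates 1 to 5, against 9.15, 8.74, 8.96, 8.54 and 8.88 in Low replicates 1 to 5. High replicates 1, 2 and 4 stood above every Low line, High replicate 3 lay within the Low range, and High replicate 5 below all Low lines but replicate 4. The difference of 0.52 (SE 0.20, 1.43-fold) had an unadjusted p of 0.023 and a limma adjusted p of 0.529. Without High replicate 5 it was 0.70 (unadjusted p = 0.000644, adjusted p = 0.133 in limma). Without High replicate 1, 2 or 4 or Low replicate 4 the unadjusted p was 0.056 to 0.0651. The other 5 probe sets of Adamts9 differed by 0.32 to 0.72 and correlated with the kept one at 0.93 to 0.98 across lines.

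Adamts1 and Adamts5, 2 proteases that cut aggrecan and versican, are next to each other on chromosome 16, with 0 protein-coding genes between them in RefSeq. Adamts1 measured 12.89, 12.19, 12.34, 12.52 and 11.87 in High replicates 1 to 5, against 11.96, 12.71, 12.62, 12.24 and 12.09 in Low replicates 1 to 5. Adamts5 measured 12.21, 11.90, 11.82, 12.01 and 11.18 in High replicates 1 to 5, against 11.38, 11.91, 12.06, 11.41 and 11.65 in Low replicates 1 to 5. High replicate 1 was the highest line and High replicate 5 the lowest for both genes, so High lines held both ends. Their differences were 0.041 and 0.15. The pair had the highest correlation of the 13 pairs, at r = 0.88 (permutation p = 0.00097, adjusted p = 0.0126) and rho = 0.90 (permutation p = 0.00077, adjusted p = 0.01). It was 0.77 without High replicates 1 and 5, 0.91 within High and 0.86 within Low lines. With the median of neighbouring genes subtracted, r was 0.91 (permutation adjusted p = 0.00403). Without High replicate 1 the adjusted p was 0.0605. Adamts4, another aggrecanase, differed by 0.12, Adamts12, which cleaves cartilage oligomeric matrix protein, by -0.046 and Adamts15 by 0.21 (limma unadjusted p = 0.0581).

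**Figure D3:**
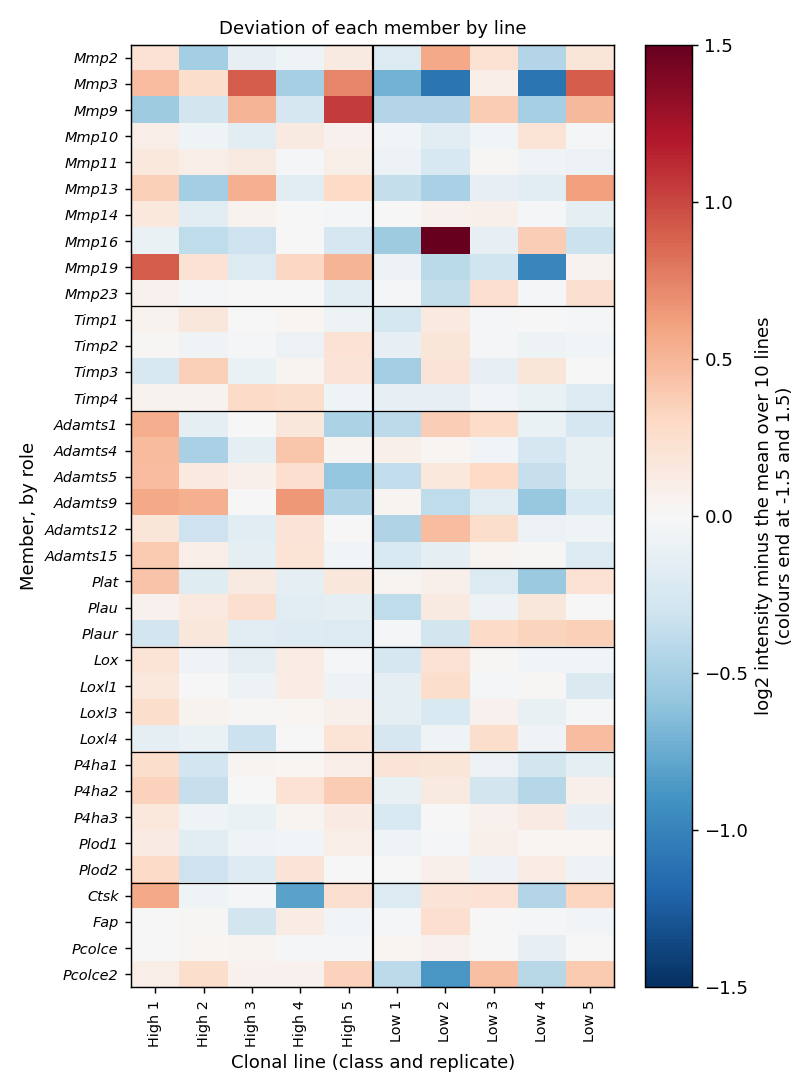
Log2 intensity of each of the 36 members minus its mean over the 10 lines (colour), with High lines left and Low lines right of the vertical line and roles separated by horizontal lines. The darkest red cell is Mmp16 in Low replicate 2, and Adamts1, Adamts4, Adamts5 and Adamts9 are all above their means in High replicate 1.

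In the plasminogen activator system, the receptor had the largest of the 3 differences in size, and it was negative. Plaur, the cell surface receptor that concentrates urokinase, measured 10.64, 11.10, 10.77, 10.73 and 10.72 in High replicates 1 to 5, against 10.90, 10.65, 11.21, 11.26 and 11.29 in Low replicates 1 to 5. High replicate 2 lay among the Low lines, and Low replicate 2 lay among the High lines. The mean was 10.79 ± 0.18 in High lines and 11.06 ± 0.28 in Low lines (SD, n = 5 each), a difference of -0.27 (95% confidence interval -0.55 to 0.011, limma unadjusted p = 0.0583, adjusted p = 0.648). Without High replicate 2 it was -0.35 and without Low replicate 2 it was -0.37, at unadjusted limma p-values of 0.0185 and 0.00544. It was -0.31 without Low replicate 1 (unadjusted p = 0.046). Without any other line it was -0.26 to -0.21, at an unadjusted p of 0.0929 to 0.138. Plau, urokinase itself, differed by 0.061, and Plat, tissue plasminogen activator, measured 10.90, 10.30, 10.61, 10.34 and 10.65 in High replicates 1 to 5, against 10.52, 10.56, 10.27, 9.92 and 10.69 in Low replicates 1 to 5. High replicate 1 was highest and Low replicate 4 lowest for Plat, and its difference was 0.17 (limma adjusted p = 0.807). No correlation was detected between urokinase and its receptor, with r = 0.076 and rho = 0.12 (permutation p = 0.836 and 0.759), and r = 0.21 without Low replicate 1 and High replicate 3.

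Among the lysyl oxidases, which start the crosslinks of collagen and elastin, 0 of 4 had an SD over the lines above the 90th percentile of all genes. Loxl3 measured 12.81, 12.60, 12.57, 12.58 and 12.63 in High replicates 1 to 5, against 12.42, 12.32, 12.62, 12.44 and 12.53 in Low replicates 1 to 5. High replicate 1 stood above the other lines, and Low replicate 3 lay among the other High lines. The difference of 0.17 (SE 0.073) had an unadjusted p of 0.0347 and a limma adjusted p of 0.585, and it was 0.13 without High replicate 1 (unadjusted p = 0.0954). Without Low replicate 1, 2 or 4 or High replicate 5 the unadjusted p was 0.0517 to 0.0905. Loxl4 ran from 10.82 to 11.34 in High lines and from 10.89 to 11.60 in Low lines, with Low replicates 5 and 3 highest, and differed by -0.14. Lox, the main crosslinking oxidase of fibroblasts, and Loxl1, which acts on elastin, differed by 0.043 and 0.042. Lox measured 13.09, 12.84, 12.76, 13.01 and 12.87 in High replicates 1 to 5, against 12.64, 13.11, 12.91, 12.85 and 12.85 in Low replicates 1 to 5. Loxl1 measured 12.61, 12.45, 12.37, 12.55 and 12.37 in High replicates 1 to 5, against 12.30, 12.71, 12.42, 12.46 and 12.23 in Low replicates 1 to 5. Low replicate 2 and High replicate 1 were the highest lines for both. The pair correlated at r = 0.85 (permutation p = 0.00245, adjusted p = 0.0159) and rho = 0.76 (permutation p = 0.0146, adjusted p = 0.0633). The genes lie on chromosomes 18 and 9. The correlation was 0.65 without those lines, and 0.93 within High and 0.82 within Low lines. The adjusted p was 0.0605 without High replicate 1 and 0.0825 without Low replicate 2, and with neighbouring genes subtracted it was 0.0815 at r = 0.71.

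**Figure D4:**
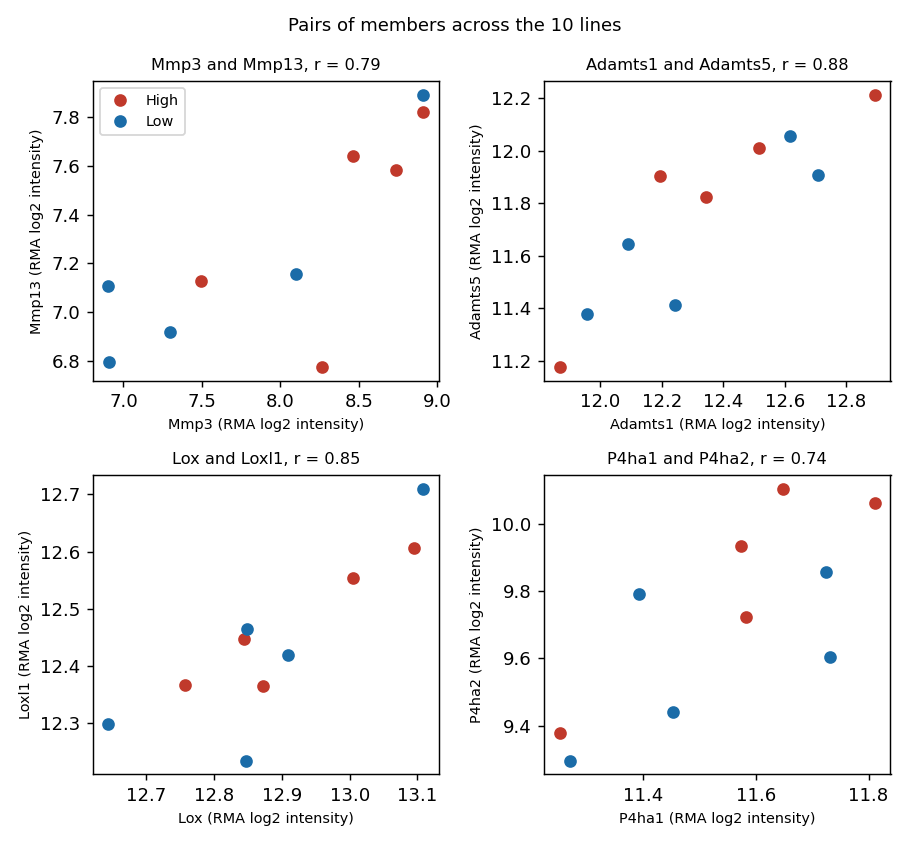
Each panel plots 2 members against each other across the 10 lines (RMA log2 intensity on both axes, High in red and Low in blue). Lines of both classes mix along the trend for Mmp3 with Mmp13, Adamts1 with Adamts5, Lox with Loxl1 and P4ha1 with P4ha2.

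Collagen hydroxylases differed by -0.022 to 0.24, with 3 values above 0 and 2 below and a median of 0.059. P4ha2, a catalytic subunit of collagen prolyl 4-hydroxylase, measured 10.06, 9.38, 9.72, 9.94 and 10.11 in High replicates 1 to 5, against 9.60, 9.86, 9.44, 9.29 and 9.79 in Low replicates 1 to 5. High replicate 2 lay with the lowest Low lines, and the difference of 0.24 did not pass (limma unadjusted p = 0.123, adjusted p = 0.725). P4ha1, the alternative catalytic subunit, measured 11.81, 11.25, 11.58, 11.57 and 11.65 in High replicates 1 to 5, against 11.73, 11.73, 11.45, 11.27 and 11.39 in Low replicates 1 to 5. High replicates 1 and 2 were its highest and lowest lines, and its difference was 0.059. P4ha3, the third subunit gene, measured 12.74, 12.51, 12.48, 12.61 and 12.70 in High replicates 1 to 5, against 12.35, 12.58, 12.64, 12.70 and 12.45 in Low replicates 1 to 5. High replicate 1 was highest and Low replicate 1 lowest, and the difference was 0.065. The lysyl hydroxylase gene Plod1 had a confidence interval of -0.17 to 0.13 around -0.022, and Plod2, which acts on the collagen telopeptides that set the type of crosslink, one of -0.25 to 0.23 around -0.00982, which was 0.018 after cyclic loess. P4ha1 and P4ha2 correlated at r = 0.74 (permutation p = 0.0161, adjusted p = 0.0523; rho = 0.65, permutation p = 0.0489), and 0.45 without High replicate 2 and Low replicate 4. With neighbouring genes subtracted, r of that pair was 0.48. P4ha1 and Plod2 gave r = 0.53 and rho = 0.48 (permutation p = 0.115 and 0.166), and r = 0.59 without the same lines. The core of the hypoxia response element, ACGTG on either strand, was in 4 of the 24 member promoters in the table, those of P4ha1, P4ha2, Mmp14 and Timp1, beside 19.6% of all windows, and in 2 of the 4 in the table among the 6 genes for which it was looked up.

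The other 4 pairs were Mmp14 with Timp2 (r = 0.24), Mmp10 with Mmp13 (r = 0.046), Mmp3 with Timp1 (r = 0.024) and Plat with Plau (r = -0.12). Their permutation adjusted p-values were 0.767 to 0.951 for r and 0.566 to 0.81 for rho, which ran from -0.091 to 0.33. Lines sharing the leading digit of their clone name were too few, at most 4, for a correlation within them.

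Among the remaining members, Pcolce2, an enhancer of procollagen C-proteinase, measured 10.99, 11.17, 10.96, 10.97 and 11.25 in High replicates 1 to 5, against 10.50, 10.03, 11.35, 10.49 and 11.29 in Low replicates 1 to 5. High lines lay close together, and Low replicates 1, 2 and 4 lay below all of them while Low replicates 3 and 5 lay above them. Its difference of 0.34 did not pass (limma adjusted p = 0.758). It was 0.49 without Low replicate 3 and 0.48 without Low replicate 5, at unadjusted p-values of 0.0311 and 0.0421 (adjusted p = 0.595 and 0.654), and 0.16 without Low replicate 2. Pcolce, the related enhancer, measured 13.71, 13.75, 13.76, 13.69 and 13.70 in High replicates 1 to 5, against 13.75, 13.78, 13.73, 13.60 and 13.72 in Low replicates 1 to 5, and its SD of 0.0516 over the 10 lines was above that of only 1.29% of tested genes. Ctsk, cathepsin K, a collagen-degrading cysteine protease, measured 10.06, 9.43, 9.47, 8.70 and 9.73 in High replicates 1 to 5, against 9.29, 9.69, 9.72, 9.05 and 9.82 in Low replicates 1 to 5. High lines held both its highest value, in replicate 1, and its lowest, in replicate 4, and its difference was -0.036. Fap, the fibroblast activation protease, exceeded the filter in 0 arrays, with 4.84 to 5.23 in High lines and 5.07 to 5.37 in Low lines (exact permutation p = 0.468, two-sided).

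**Figure D5:**
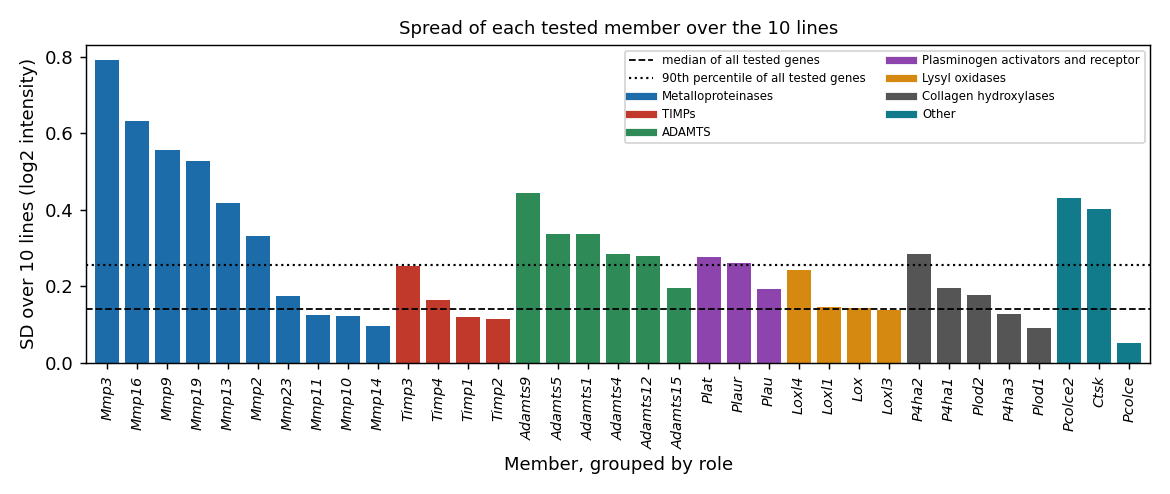
SD over the 10 lines (log2 intensity, y axis, bars from 0) of each tested member by role, with the median (dashed) and the 90th percentile (dotted) of all tested genes. Mmp3 has the largest SD of the 35 members and Pcolce the smallest.

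Many members varied widely over the 10 lines, a spread that includes any difference between the classes. The SD over the 10 lines exceeded 0.255, the 90th percentile of all tested genes, in 16 of 35 members (45.7%), where 10% of all genes do so by construction. That 10% is over tested genes of every signal level, and the members were not compared with genes of like signal. These were 6 of 10 metalloproteinases, 5 of 6 ADAMTS proteases, 2 of 3 plasminogen activator genes, 1 of 5 hydroxylases, 2 of 3 others, 0 of 4 TIMPs and 0 of 4 lysyl oxidases. Outside the set, 0 of 8 other metalloproteinases and 3 of 17 other ADAMTS and ADAMTS-like genes exceeded that percentile. Signal level was not matched in these comparisons. Of the other metalloproteinases, Mmp28 ran from 9.21 to 10.02, while Mmp7, Mmp12, Mmp17, Mmp20, Mmp21, Mmp24 and Mmp25 ran from 6.21 to 7.73. The SD was 0.792 for Mmp3, 0.632 for Mmp16, 0.557 for Mmp9, 0.527 for Mmp19 and 0.445 for Adamts9, beside a median of 0.14 over all genes. Mmp16 lay near the intensity filter in most lines, with Low replicate 2 far above the others. By contrast the SD was 0.0966 for Mmp14 and 0.09 for Plod1. This is a description of 10 arrays, and members of 1 gene cluster are not independent.

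Chromosome position moved with some of the differences. Timp4, Adamts9 and Loxl3, 3 of the 5 nominally higher members, lie on chromosome 6, where the median difference of 827 genes was 0.064 and 9.79% were nominally higher. With the 50 nearest genes subtracted, the difference was 0.00645 for Timp4 (unadjusted p = 0.954), 0.40 for Adamts9 (unadjusted p = 0.0779) and 0.050 for Loxl3 (unadjusted p = 0.618). After the same step P4ha2 differed by 0.42 (unadjusted p = 0.00571), Adamts15 by 0.31 (unadjusted p = 0.0184) and Plaur by -0.36 (unadjusted p = 0.0228), with a limma adjusted p of 0.468 or more for every member. Within clone names that share a leading digit, P4ha2 differed by 0.00799, Adamts15 by 0.079 and Plaur by -0.34. The unadjusted limma p-values of these were 0.971, 0.607 and 0.105. Mmp2 and Plat lie on chromosome 8, where the median difference was -0.073. They differed by -0.026 and 0.19 after the step, against -0.14 and 0.17 before it. The part of such chromosome-wide shifts in the members' differences was not tested.

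Marker lists of other cell types overlapped between the classes in their summed level, given as the log2 of the summed intensities, which the brightest genes dominate. Single markers differed at the unadjusted level only. The 8 macrophage and leukocyte genes, from cells known to make Mmp9, summed to 10.63 to 10.85 in High lines and 10.52 to 10.73 in Low lines, and 3 of 8 were below the filter. Csf1r, the receptor of a macrophage growth factor, differed by -0.16 (limma unadjusted p = 0.0313, adjusted p = 0.574). Its classes did not overlap, as in 1.57% of all tested genes. The 7 mature adipocyte genes with a probe set summed to 10.29 to 11.10 in High and 10.14 to 10.43 in Low lines, with Adipoq and Lep below the filter. Fabp4, a fatty acid binding protein gene among them, averaged 9.82 ± 0.69 in High lines and 8.60 ± 0.45 in Low lines (SD, n = 5 each), with a limma unadjusted p of 0.00181 and an adjusted p of 0.298. The 8 endothelial genes summed to 10.25 to 10.54 in High and 10.27 to 10.40 in Low lines, and 1 of 8 was below the filter. The 8 epithelial genes summed to 10.47 to 10.75 in High and 10.47 to 10.53 in Low lines, and Cldn4, a tight junction gene, differed by 0.18 (limma unadjusted p = 0.0381, adjusted p = 0.593). Smooth muscle and pericyte genes summed to 14.11 to 14.31 in High and 14.30 to 14.40 in Low lines, and 0 of 8 were below the filter. Tagln, an actin-binding gene of that list, differed by -0.70 (limma unadjusted p = 0.00147, adjusted p = 0.277). In that list 5 of 8 differences were positive and 3 negative, with a median of 0.048. Of the fibroblast list, Thy1 differed by 0.34 (unadjusted p = 0.0197) and Pdgfra by 0.33 (unadjusted p = 0.0494), with limma adjusted p-values of 0.511 and 0.628. An unadjusted limma p under 0.05 was thus found in 2 of 10 tested fibroblast, 1 of 5 mature adipocyte and 1 of 5 leukocyte genes. It was found in 1 of 8 epithelial, 1 of 8 smooth muscle and pericyte and 0 of 7 endothelial genes, beside 7.95% of all tested genes. The part of these markers in the members' differences was not tested.

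Other genes of the same biology were likewise without a call over all genes. Of 75 tested genes in 6 lists, 0 passed at a limma adjusted p under 0.05. At the unadjusted level 3 were higher and 3 lower, beside 3.16% higher and 4.79% lower over all tested genes. The counts are near those shares, so the genes named below are not a result about the lists. Among 14 cathepsins and other proteases, Ctsz, a lysosomal carboxypeptidase, measured 11.98 ± 0.21 in High and 11.43 ± 0.33 in Low lines (SD, n = 5 each). The difference was 0.55 (limma unadjusted p = 0.00318, adjusted p = 0.331) with no overlap between the classes, as in 1.57% of all tested genes. Ctsh, a lysosomal aminopeptidase, differed by -1.31 (unadjusted p = 0.0181), with Low lines spread from 6.79 to 9.70. Among 12 protease inhibitors outside the TIMPs, Serpinb2, which blocks plasminogen activators, differed by -1.03 (unadjusted p = 0.0317). Of 10 ADAM sheddases and astacins, Adam19, a membrane protease that sheds growth factors, differed by -0.34 (unadjusted p = 0.00531). Adamts16, among 17 other ADAMTS and ADAMTS-like genes, differed by 0.26 (unadjusted p = 0.017), and P3h4, among 14 collagen folding and modification genes, by 0.19 (unadjusted p = 0.0436). The adjusted p was 0.331 or more for each of these in limma. The 8 other metalloproteinases tested had differences with a median of 0.073 and 0 nominal calls.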

How the data were processed

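RNA of 10 clonal 3T3-L1 lines, 5 High and 5 Low in adipogenic potential, was measured on whole-transcript Affymetrix arrays. Each deposited value is the log2 intensity of a probe set, and the submitters' processing notes name RMA. Settings and array batches were not given in the sources used here. Because RMA equalises the arrays, it would take out a shift common to most genes. Of 34760 probe sets, 21640 carried 1 gene symbol, 1321 several, and 11799 were unnamed here. They stood for 19937 genes, and the brightest probe set was kept for the 954 genes with several. A gene was tested when above its array's 25th percentile over all probe sets in at least 5 arrays, which left 16339.

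Differences, High minus Low, came from lmFit and eBayes of limma 3.58.1 under R 4.3.3, two-sided, with Benjamini-Hochberg adjustment across every tested gene and a threshold of 0.05. Correlations used 100000 permutations of lines, adjusted over 13 pairs. Of the 15 pairs listed, 2 lacked a probe set. Promoter sequences and gene order came from RefSeq tables of GRCm38.p6, and no genome build is named for the arrays. Fits were tested on simulated data of 16339 genes and 5 arrays a class, where 28% of 50 genes changed 1.25-fold, 76% changed 1.5-fold and 96% changed 2-fold were recovered. The genes were simulated as independent. The changed genes were drawn from all tested genes, whose median SD over the lines was 0.14, beside 0.242 for the members. The simulation gave 159 calls, where the measured values gave 1. It held 50 planted genes at each fold, with 4-fold as a further one, so the 2 counts cannot be compared. Because its genes were independent and mostly less variable than the members, its recovery does not carry over to them. Precision is limited by the number of lines. With 1 array a clone, clonal and technical spread cannot be separated.

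Members, lists, pairs and tests were chosen with earlier results of these data known. Values in every line are given for members with an unadjusted p under 0.05 or no overlap, for the 2 of each role with the largest SD (Loxl4 as a range), and for the brightest of each role. Mmp13 was added as the partner of a pair, and Mmp9 after its values were seen. Python 3.11.15 with pandas 2.3.3, numpy 2.4.6, scipy 1.17.1 and matplotlib 3.10.9 handled tables and plots. The alternatives covered the filter, probe sets, normalization, variance models, array weights, the leading digit of the clone name, neighbouring genes and leaving out each line.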

Additional observations from a re-analysis of the deposited data

Results flagged for a closer look

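In 72 sets of 5 values (36 members in 2 classes), the gap between 1 line and the nearest other line was compared with the range of the set, and 3 sets had 1 line far from the other 4. Chance alone gives about 1 in 20, or 3.6 of 72.

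Plaur, the urokinase receptor gene, measured 11.10 in High replicate 2, against 10.64 to 10.77 in the other High lines. Loxl3, a lysyl oxidase gene, measured 12.81 in High replicate 1, against 12.57 to 12.63 in the other High lines. Fap, which lay below the intensity filter in every line, measured 5.37 in Low replicate 2, against 5.07 to 5.12 in the other Low lines.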

How the results depend on the processing

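The count of members past the limma threshold was 0 under every alternative run, with a smallest member adjusted p of 0.133 (Adamts9 without High replicate 5). The count of all genes past it was 1, and it was 2 with array centring, with neighbouring genes subtracted and with a variance trend, 3 with array weights, 0 with the clone name's leading digit as a block, and 1 to 19 with 1 line left out (19 without High replicate 5). Members with an unadjusted p under 0.05 numbered 5, 0 with the leading digit as a block and 3 to 7 with 1 line left out (3 without High replicate 1). That block rests on 4 lines with names starting with 4, 2 of each class. Over all genes the split was 517 higher and 782 lower at an unadjusted p under 0.05, 298 and 1188 with arrays centred, 738 and 542 with neighbouring genes subtracted, and 278 and 398 with the block. Of 730 member differences under alternatives, 679 kept their direction and 51 turned, and none of the 35 members' differences had been past the threshold. With each array centred on its median, Mmp10 differed by -0.000388, Mmp14 by -0.024, Timp2 by -0.00463 and Pcolce by -0.023. With cyclic loess, Mmp10 differed by -0.029, Plod2 by 0.018, r of Mmp3 and Mmp10 was 0.037 and r of Mmp3 and Timp1 was -0.025. With neighbouring genes subtracted, Mmp10 differed by -0.00526, Timp3 by -0.030, Plod2 by 0.020 and Pcolce by -0.098. With that block, Mmp10 differed by -0.20, Mmp13 by -0.20, Adamts4 by -0.13, Lox by -0.048, P4ha3 by -0.083 and Ctsk by 0.015. With repeated quantile normalization, Plod2 differed by 0.00984 and r of Mmp3 and Timp1 was -0.019. With array weights, Ctsk differed by 0.057. With neighbouring genes subtracted from both members, r of Mmp2 and Mmp14 was -0.035, r of Mmp2 and Timp2 was -0.075, r of Mmp14 and Timp2 was -0.12 and r of Mmp3 and Mmp10 was 0.021. With class means removed, r of Mmp3 and Timp1 was -0.16. With 1 line left out, the ranges of the differences that turned were Mmp9 -0.036 to 0.36, Mmp10 -0.00482 to 0.087, Mmp14 -0.031 to 0.049, Mmp23 -0.13 to 0.018, Timp2 -0.025 to 0.077, Timp3 -0.014 to 0.17, Adamts1 -0.092 to 0.16, Adamts12 -0.17 to 0.064, Plau -0.027 to 0.11, Lox -0.014 to 0.10, Loxl1 -0.00554 to 0.11, P4ha1 -0.00211 to 0.14, Plod1 -0.055 to 0.018, Plod2 -0.083 to 0.066, Ctsk -0.18 to 0.16 and Pcolce -0.020 to 0.027. The ranges of r that turned were Mmp3 and Mmp10 -0.57 to 0.091, Mmp10 and Mmp13 -0.17 to 0.32, Mmp3 and Timp1 -0.36 to 0.28, Plau and Plaur -0.077 to 0.19 and Plat and Plau -0.22 to 0.15. The causes were not tested. No paired analysis was possible because each line is a separate clone in 1 class, and nothing in the labels pairs High with Low lines. The numbers 1 to 5 used here only name lines in sample order.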

Other observations

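Among Low lines, those bright or dim for Mmp3 recurred in other members of several roles, a pattern picked after the values were seen and given without a test. The share of all tested genes with this order was not worked out, so it is not shown to be particular to the members. Low replicates 3 and 5 were the 2 highest Low lines for Mmp3 (8.10 and 8.91), Mmp9 (9.41 and 9.52), Mmp13 (7.16 and 7.89) and Pcolce2 (11.35 and 11.29), and replicates 1, 2 and 4 the 3 lowest for each. The same held for Mmp23 (11.64 and 11.62), Loxl3 (12.62 and 12.53) and Loxl4 (11.41 and 11.60). It also held for Ctsk (9.72 and 9.82) and Plod1 (12.24 and 12.19), where Low replicate 4 was level with replicate 5. Among High lines, replicates 3 and 5 were the 2 highest for Mmp3 (8.91 and 8.74) and Mmp9 (9.54 and 10.08), but not for Mmp13, where replicate 1 at 7.64 lay above replicate 5 at 7.58, nor for Pcolce2, where replicate 5 was the highest High line at 11.25 and replicate 3 the lowest at 10.96.

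High replicate 1 had the highest signal of the 10 lines for 14 of the 36 members, Mmp11, Mmp14, Mmp19, Adamts1, Adamts4, Adamts5, Adamts15, Plat, Loxl3, P4ha1, P4ha3, Plod1, Plod2 and Ctsk. Its median deviation from the gene means was 0.16 over the 35 tested members, where the other 4 High lines ran from -0.058 to 0.063 and the Low lines from -0.15 to 0.0645. It was 0.47 for the 6 ADAMTS genes and 0.27 for the 5 hydroxylases. The same count and deviations were not worked out over all tested genes, so they are not shown to be particular to the members. The part of an array-wide shift in them was not tested.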
